A study of Drosophila melanogaster with 4 samples.

Results

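The Antennapedia complex and the bithorax complex are the gene clusters that hold the 8 Hox genes of *Drosophila melanogaster*. They were examined here in histone H3 ChIP-seq data from wild-type 3rd instar larvae. The members are the H3-enriched regions on chromosome arm 3R that have at least 1 base between 2480000 and 2830000, for the Antennapedia complex, or between 12480000 and 12810000, for the bithorax complex (FlyBase r5). There were 121 such regions in replicate 1, 129 in replicate 2 and 166 in a further list by the authors, that of the replicate set, which is called the combined list. Over these 3 lists that is 416 of 14734 enriched regions of 3R and of 59783 in the genome. The Antennapedia complex held 63, 66 and 89 of them, and the bithorax complex 58, 63 and 77, in that order of lists.

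The study immunoprecipitated fixed, sonicated chromatin with an antibody against H3 and sequenced it beside input chromatin, which is the same kind of material without immunoprecipitation. Its 4 libraries are 2 H3 ChIP replicates and 2 inputs, with input 1 serving ChIP 1 and input 2 serving ChIP 2. All came from nuclei of the Oregon-R strain (Oregon-R-modENCODE), with no treatment, transgene or mutant named. Nothing in the labels says that the replicates came from separate cultures, and the spread between replicates may therefore be technical. The labels name no tissue, so each value averages over nuclei in which a given Hox gene may be active or silent.

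Hox genes encode homeodomain transcription factors that give the body segments their identity, and their order on the chromosome follows the order of the segments they control along the body axis. In the fly, lab, pb and Dfd act in the head, Scr in the labial and first thoracic segments, Antp in the thorax, Ubx in the posterior thorax and first abdominal segment, and abd-A and Abd-B in the abdomen. Outside the segments where they are needed they are kept silent by Polycomb group proteins, which mark nucleosomes over both complexes by methylation of H3. The antibody target here is named only as H3, so the values describe H3 over input and not a modification.

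Between lab and Antp, the RefSeq table of release 6 lists 43 genes, both included, in the order lab, pb, zen2, zen, bcd, Ama, Dfd, Scr, ftz and Antp when the genes of the named set are taken. Of the 43, 19 code for proteins. They include 7 cuticle genes of the Ccp84A group between lab and pb, zen and bcd, which pattern the early embryo, ftz, a segmentation gene of the pair-rule class, and Ama, a secreted immunoglobulin-domain protein. Between Ubx and Abd-B it lists 16 genes, of which 6 code for proteins and 7 are long noncoding RNAs, among them bxd between Ubx and abd-A. The positions of that table belong to another assembly than the files. No region was therefore assigned to a Hox gene, and places are given as FlyBase r5 positions or as distance from the low-coordinate end of the complex.

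Both complexes had less of their length in H3-enriched regions than most windows of equal length on 3R. The regions of the Antennapedia complex covered 34.8% of it in replicate 1 and 37.8% in replicate 2, a mean of 36.3 ± 2.15% (SD, n = 2). The median window of 3R had 44.7% in replicate 1 and 48.3% in replicate 2. For the bithorax complex the shares were 36.3% and 40.8%, a mean of 38.6 ± 3.23% (SD, n = 2), against medians of 44.4% and 49.6%. In both replicates the gap to the median window was larger than the SD between replicates. That SD holds a rise seen over all of 3R, from 44.2% covered in replicate 1 to 48.3% in replicate 2. It does not measure the spread among windows.

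These windows were laid end to end along 3R, and those touching either complex were left out, which left 75 windows for the Antennapedia complex and 80 for the bithorax complex. Of the 75 windows, 13 had a lower covered share than the Antennapedia complex in replicate 1 and 11 in replicate 2. Of the 80 windows, 17 lay below the bithorax complex in replicate 1 and 20 in replicate 2. The complexes thus stood in the lower part of the range of 3R but inside it, since the lowest windows had 22.8% and 26.9% for the longer length and 23.2% and 25.5% for the shorter. This is a ranking within 1 arm, with no test. Set against 2L, 2R, 3L and X in place of 3R, the mean percentile was 42.5 for the Antennapedia complex and 47.4 for the bithorax complex, in place of 16.0 and 23.1 on 3R.

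**Figure D1:**
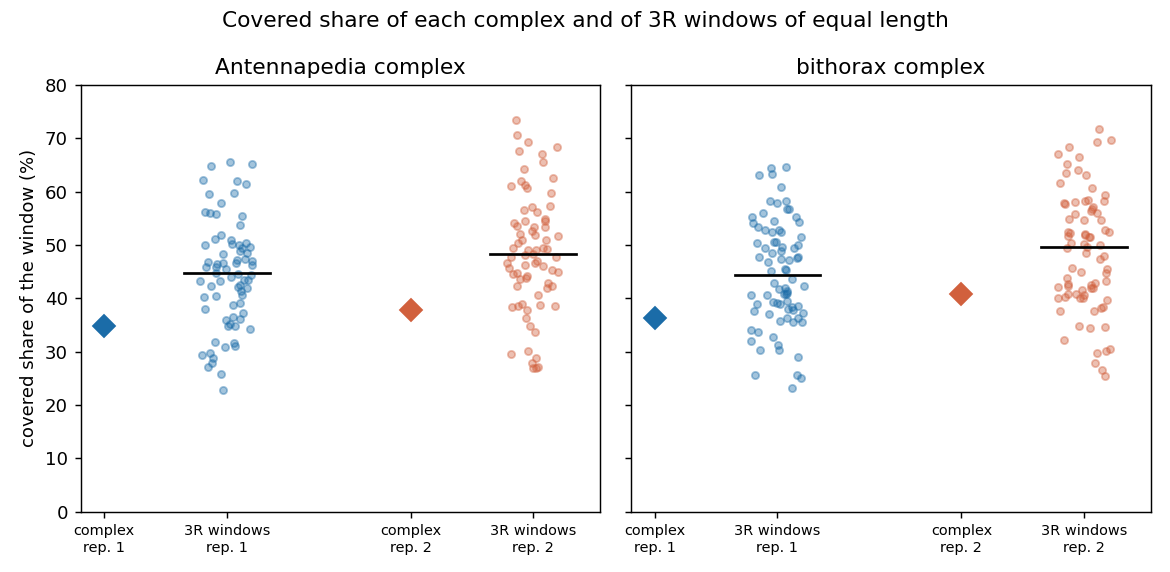
Covered share (%) of each complex (diamonds) and of windows of equal length on 3R (dots, with the median as a line) in replicate 1 (rep. 1) and replicate 2 (rep. 2). The Antennapedia complex lay at 34.8% and 37.8%, and the bithorax complex at 36.3% and 40.8%, below the median window in all 4 cases and above the lowest windows.

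The bithorax complex had the higher share of the pair in each list. The difference, bithorax minus Antennapedia, was 1.50 percentage points in replicate 1, 3.02 in replicate 2 and 3.45 in the combined list. Its mean over the replicates was 2.26 ± 1.08 points (SD, n = 2). Both shares rose from replicate 1 to replicate 2. The SDs of the Antennapedia share (2.15 points) and of the bithorax share (3.23 points) hold that common rise. They are therefore no measure of the spread of this difference, which was not tested.

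The immediate neighbours of the complexes differed. The 350 kb on the low side of the Antennapedia complex had 37.8% and 42.0% covered in replicates 1 and 2, and the stretch of that length on its high side had 41.2% and 41.5%. All of these values were above the complex in the same replicate, by 2.98 to 6.45 percentage points. In the combined list the low side was above the complex by 0.56 points and the high side differed from it by -1.01 points, flank minus complex. The 330 kb on the low side of the bithorax complex had 53.3% and 57.8%, far above the complex, and the high side had 38.3% and 42.7%, which is above it by 2.05 points in replicate 1 and 1.90 in replicate 2. The combined list turned the direction on the high side, with 61.1% in the complex and 54.6% beyond it, and kept it on the low side, with 71.3%.

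In the replicates the regions of both complexes were narrow but not few. In the Antennapedia complex the median width of replicate 1, 1671 bp, was below that of each of the 75 windows of 3R, and that of replicate 2, 1802 bp, was below 73 of 75. The median window had 2073 bp and 2199 bp. For the bithorax complex these widths were 1855 bp and 1913 bp, below 72 and 71 of 80 windows, whose medians were 2095 bp and 2225 bp. The number of regions was above that of the median window in each case. The Antennapedia complex had 63 and 66 regions against medians of 59 and 61, and the bithorax complex 58 and 63 against 55 and 56. In the combined list the median widths were 1863 bp and 2271 bp, below 73 of 75 and 50 of 80 windows. The part of width, number or long gaps in the low covered share was not tested.

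Wide regions were scarce in both complexes. In replicate 1, 1 of 63 regions of the Antennapedia complex and 1 of 58 of the bithorax complex were at least 5 kb wide, where the background over all regions of 3R was 7.62%. In replicate 2 these counts were 2 of 66 and 0 of 63, beside a background of 10.3%. In the combined list they were 6 of 89 and 5 of 77, beside 16.3%. No region of either complex reached 10 kb in any of the 3 lists. Such regions were rare on 3R as well, at 0.581% in replicate 1, 1.19% in replicate 2 and 2.56% in the combined list, so that in the replicates a count of 0 lies close to the background.

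The widest region of the Antennapedia complex in replicate 1 ran from 2534845 to 2541677 (6833 bp, log2 value 0.59). The value is the authors' own for each region and was read as log2 of ChIP over input. Replicate 2 covered 74.3% of it, with a region of 5074 bp from 2534895 to 2539968 (log2 value 0.49). The widest of replicate 2 in this complex was another one, from 2739733 to 2745091 (5359 bp, log2 value 0.50), of which replicate 1 covered 67.9% in 2 pieces. The widest region of the bithorax complex lay in the same place in both replicates, from 12501773 to 12508405 in replicate 1 (6633 bp, log2 value 0.50) and from 12501716 to 12506400 in replicate 2 (4685 bp, log2 value 0.52). Replicate 2 covered 95.6% of the region of replicate 1 there.

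**Figure D2:**
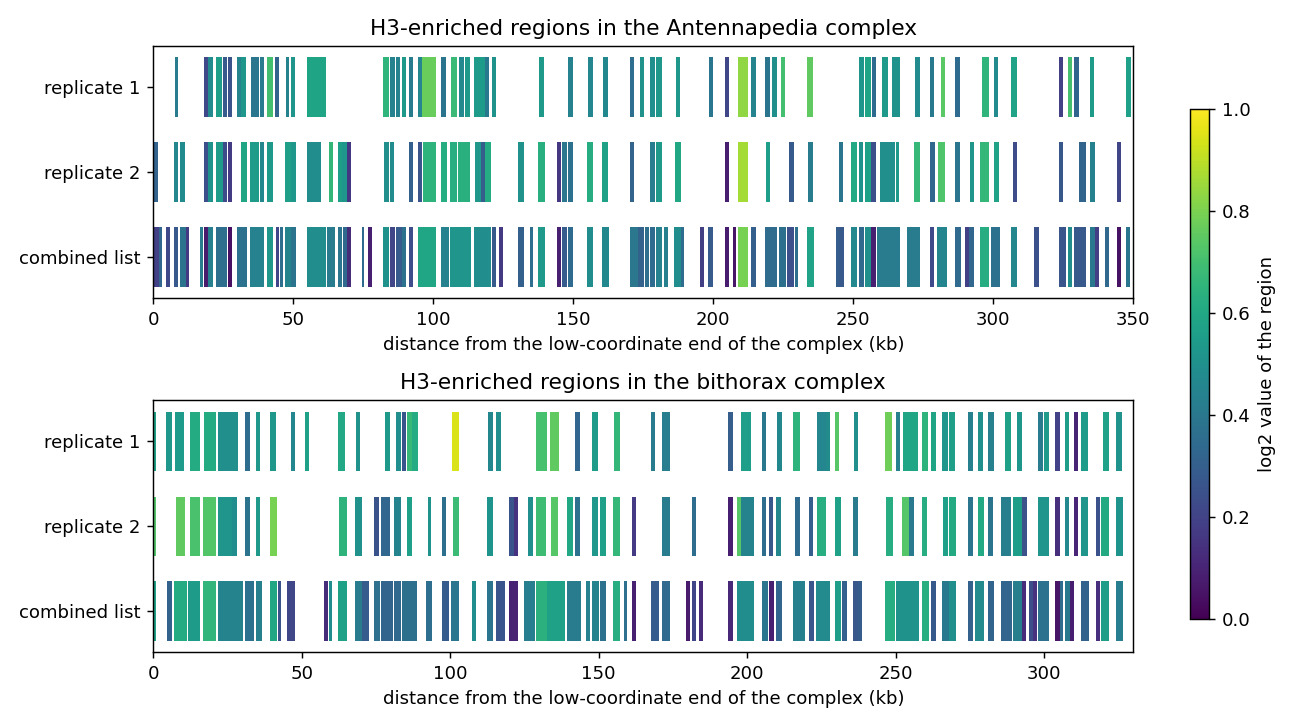
H3-enriched regions along the Antennapedia complex (top) and the bithorax complex (bottom), in kb from the low-coordinate end, for replicate 1, replicate 2 and the combined list, coloured by the log2 value of the region. Narrow regions with a median width of 1671 to 1913 bp in the replicates are spread over both complexes, with stretches of up to 20.7 kb without one.

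Enrichment within the regions was modest in both complexes. The median log2 value in the Antennapedia complex was 0.48 in replicate 1 and 0.50 in replicate 2, a mean of 0.49 ± 0.014 (SD, n = 2), against 0.53 and 0.52 in the median window. In replicate 1 it was below 69 of 75 windows and in replicate 2 below 55 of 75. The bithorax complex had 0.53 and 0.51, a mean of 0.52 ± 0.020 (SD, n = 2), against 0.52 and 0.52. Its rank changed with the replicate, with 50 of 80 windows below it in replicate 1 and 24 of 80 in replicate 2.

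Values ranged from 0.19 to 0.84 in the Antennapedia complex in replicate 1 and from 0.085 to 0.86 in replicate 2. The highest was the same place in both replicates and in the combined list. It ran from 2688993 to 2692265 in replicate 1 (log2 value 0.84), from 2688969 to 2692345 in replicate 2 (0.86) and from 2688928 to 2692416 in the combined list (0.79). That place lies 209 kb from the low-coordinate end, beyond the middle of the complex.

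Values of the bithorax complex ran from 0.098 to 0.94 in replicate 1 and from 0.085 to 0.80 in replicate 2, and the highest place differed between lists. In replicate 1 it was the region from 12580695 to 12582896 (2202 bp, log2 value 0.94), which overlapped a region of 0.68 in replicate 2. In replicate 2 it was the region from 12519192 to 12521686 (2495 bp, log2 value 0.80), which overlapped a region of 0.53 in replicate 1. In the combined list it was the region from 12496834 to 12501254 (4421 bp, log2 value 0.65).

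Some of the lowest values recurred in both replicates. The region from 2684214 to 2685703 of the Antennapedia complex had a log2 value of 0.21 in replicate 1, and its counterpart in replicate 2, from 2684208 to 2685764, had 0.085, the lowest there. The lowest of the bithorax complex in replicate 1 ran from 12790136 to 12791487 (0.098), and replicate 2 had 0.11 from 12790161 to 12791566. Both places were called enriched in each replicate at log2 values of at most 0.21. The lowest of the Antennapedia complex in replicate 1, from 2803516 to 2804898 (0.19), overlapped a region of 0.27 in replicate 2. The lowest of the bithorax complex in replicate 2, from 12673528 to 12675124 (0.085), overlapped a region of 0.29 in replicate 1.

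Values of regions that overlapped between the replicates by at least 1 base went together. Over 53 such pairs in the Antennapedia complex, Spearman's rho was 0.462 and Pearson's r 0.618, and over 51 pairs in the bithorax complex they were 0.619 and 0.705. These describe pairs along 1 chromosome that share the same libraries, so no test is given. A region that overlapped more than 1 region of the other replicate entered more than 1 pair. Some overlaps were short, such as 21 bp in the Antennapedia complex and 20 bp in the bithorax complex. No such values were computed for the rest of 3R. The median difference, replicate 2 minus replicate 1, was 0.0026 and -0.010 log2 units, with an SD over pairs of 0.13 and 0.12. In 27 of 53 and 23 of 51 pairs replicate 2 was the higher.

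**Figure D3:**
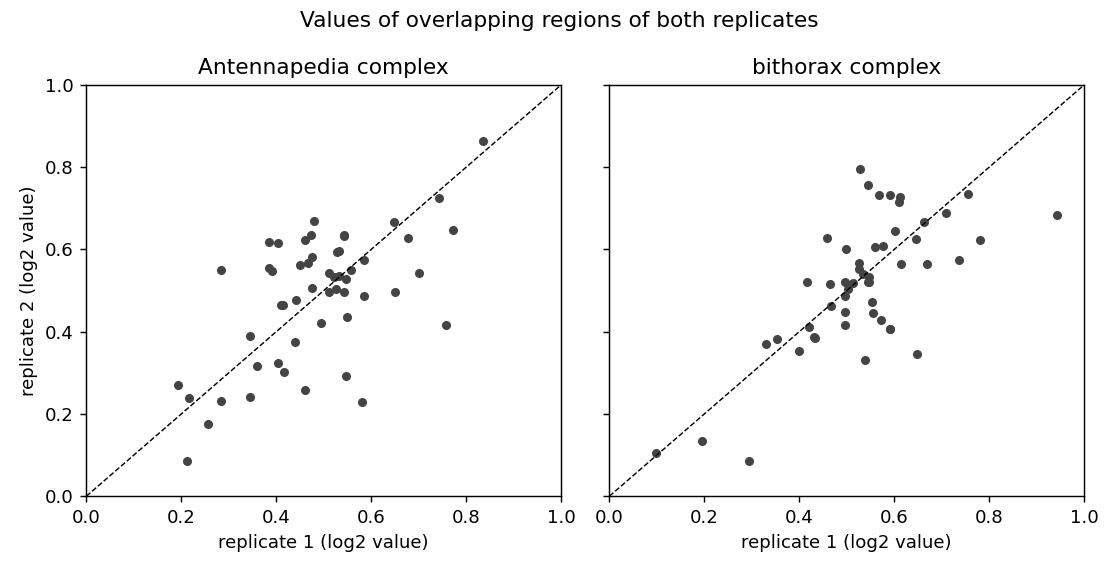
Log2 value in replicate 1 (horizontal) and replicate 2 (vertical) of each pair of overlapping regions, 53 in the Antennapedia complex and 51 in the bithorax complex, with the line of equal values dashed. The points lie on both sides of the line, with an SD of the difference of 0.13 and 0.12 log2 units.

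Of the bases covered in at least 1 replicate, a smaller share was covered in both than in nearly all windows of 3R. The bases covered in both replicates were 61.3% of the bases covered in either one (the Jaccard index) in the Antennapedia complex, lower than in 73 of 75 windows, whose median was 74.9%. For the bithorax complex it was 63.1%, lower than in 77 of 80 windows, whose median was 74.6%. As a share of total length, bases covered in both replicates were 27.6% of the Antennapedia complex and 29.8% of the bithorax complex, against medians of 40.3% and 39.7%, with 10 of 75 and 14 of 80 windows lower. Across windows the Jaccard index moved with the covered share, with Pearson's r of 0.664 over 75 windows and 0.619 over 80. Of the 12 windows with a lower mean covered share than the Antennapedia complex, 10 had a higher index, with a median of 64.9%. Of the 17 below the bithorax complex, 14 had a higher index, with a median of 66.7%. The part of the covered share or of region width in this agreement was not tested.

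Counted by region, 50 of 63 regions of the Antennapedia complex in replicate 1, or 79.4%, had at least 50% of their bases in a region of replicate 2, and 48 of 58, or 82.8%, in the bithorax complex. The background over all regions of 3R was 89.8%. In the other direction, 51 of 66 regions of replicate 2, or 77.3%, and 48 of 63, or 76.2%, were covered by replicate 1, beside a background of 83.2%. Regions with no base in the other replicate made up 13 of 63 and 9 of 58 in replicate 1, or 20.6% and 15.5%, beside a background of 8.31%. In replicate 2 they were 15 of 66 and 15 of 63, or 22.7% and 23.8%, beside 14.2%.

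Unshared regions were narrower than shared ones in both complexes, a contrast that was not computed for the rest of 3R. Their median width in the Antennapedia complex was 1438 bp (replicate 1) and 1654 bp (replicate 2), against 1783 bp and 1856 bp for the shared ones. These widths were 1464 bp and 1456 bp in the bithorax complex, against 1940 bp and 2137 bp. In replicate 1 the unshared regions of the Antennapedia complex were no weaker, with a median log2 value of 0.50 against 0.48. In the other 3 cases they were, with 0.39 against 0.51 in replicate 2 of the Antennapedia complex, and 0.48 against 0.54 and 0.30 against 0.52 in replicates 1 and 2 of the bithorax complex.

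Coverage was uneven along each complex. No blocks were computed elsewhere on 3R, so whether other stretches are as uneven is not known. In 50 kb blocks, the Antennapedia complex had its highest mean share in the first block, with 45.9% covered in replicate 1 and 50.2% in replicate 2, a mean of 48.0 ± 3.05% (SD, n = 2). The next 2 blocks had 42.8 ± 1.30% and 44.8 ± 7.25%. Between 150 and 250 kb from the low-coordinate end the share dropped to 26.0 ± 2.40% and 26.0 ± 2.09%. It was 44.5 ± 8.79% between 250 and 300 kb, and 21.9 ± 0.88% in the last block (SD, n = 2 for each). The blocks between 150 and 250 kb and the last one were below the other 4 in both replicates.

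The bithorax complex had its highest shares in the first and the last of its 6 full blocks, which leave out the last 30 kb. The first block had 53.9% in replicate 1 and 48.0% in replicate 2, a mean of 50.9 ± 4.19%, and the block between 250 and 300 kb had 49.7% and 51.1%, a mean of 50.4 ± 1.02% (SD, n = 2 for each). The lowest block lay between 150 and 200 kb, with 19.5% and 29.5%, a mean of 24.5 ± 7.07% (SD, n = 2). The remaining 3 blocks had 30.3 ± 3.55%, 36.4 ± 7.36% and 35.3 ± 3.48% (SD, n = 2 for each). The first block and that between 250 and 300 kb were above the other 4 in both replicates.

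In 10 kb bins, the richest of the Antennapedia complex lay between 110 and 120 kb, with 83.5% in replicate 1 and 83.6% in replicate 2. The richest of the bithorax complex lay between 20 and 30 kb, with 78.5% and 76.2%. Bins in which both replicates covered at least 50% numbered 8 of 35 in the Antennapedia complex and 4 of 33 in the bithorax complex, or 22.9% and 12.1%, against 39.7% of 2720 bins of 3R outside the complexes. Bins with less than 25% in both replicates numbered 9 of 35 and 4 of 33, or 25.7% and 12.1%, against 19.1%. Rich bins were thus a smaller share of both complexes than of the rest of 3R. The shares of poor bins lay on either side of that of 3R. They rest on few, neighbouring bins, so no difference between the complexes is read from them.

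Pearson's r between the replicates over bins was 0.760 for 35 bins of the Antennapedia complex and 0.602 for 33 bins of the bithorax complex, and 0.896 over the bins of 3R outside them. Spearman's rho was 0.673, 0.489 and 0.894. The bins share their libraries and neighbours, so these values describe the agreement and carry no test. Those of 3R span 2720 bins of the whole arm. No correlation was computed within windows of equal length, so no poorer agreement in the complexes is read from this contrast. The largest differences between replicates in 1 bin were 36.1 points in the Antennapedia complex and 46.1 points in the bithorax complex. The first was between 60 and 70 kb, with 16.8% in replicate 1 and 52.9% in replicate 2, and the second between 120 and 130 kb, with 12.3% and 58.3%.

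**Figure D4:**
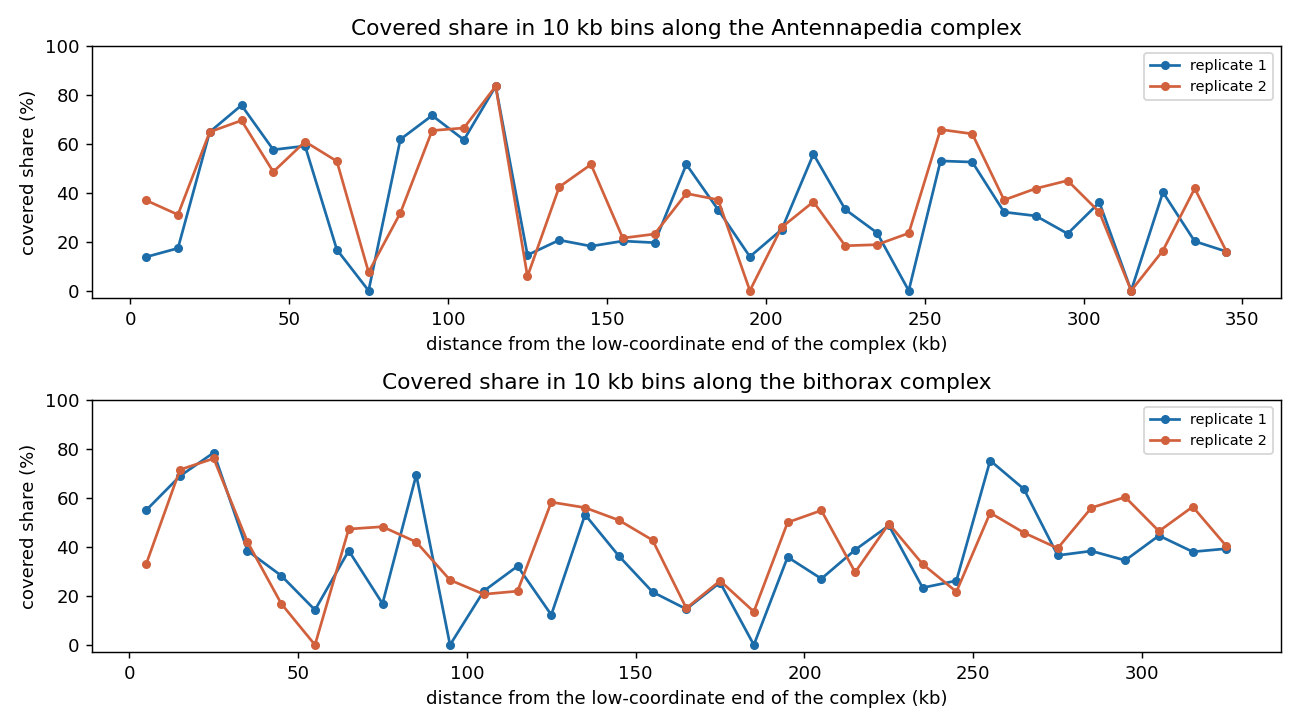
Covered share (%) of 10 kb bins along the Antennapedia complex (top, 35 bins) and the bithorax complex (bottom, 33 bins), in kb from the low-coordinate end, for replicate 1 and replicate 2. The replicates lie close at the richest bins, 83.5% and 83.6% at 110 to 120 kb and 78.5% and 76.2% at 20 to 30 kb. They also do so at some other bins, such as 64.85% in both at 20 to 30 kb of the Antennapedia complex. The largest differences are 36.1 and 46.1 percentage points.

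Of the gaps, the stretches between enriched regions, the longest of each complex was near the middle of 3R in the replicates. The median gap of the bithorax complex was long in both replicates, and that of the Antennapedia complex in replicate 2. The longest in the Antennapedia complex was 20507 bp in replicate 1 and 15889 bp in replicate 2, against 20377 bp and 17516 bp in the median window. For the bithorax complex it was 19592 bp and 20700 bp, against 19692 bp and 18269 bp. The median gap was 1684 bp and 2097 bp in the Antennapedia complex, against 1753 bp and 1596 bp, longer than in 32 and 57 of 75 windows. It was 2401 bp and 2416 bp in the bithorax complex, against 1830 bp and 1657 bp, longer than in 63 and 69 of 80 windows. In the combined list the longest gap was 7953 bp in the Antennapedia complex, shorter than in 68 of 75 windows, and 9771 bp in the bithorax complex, shorter than in 53 of 80. The median gap in that list was 1011 bp and 1009 bp, longer than in 39 of 75 and 37 of 80 windows.

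The longest gap lay in different places in the replicates. In replicate 1 of the Antennapedia complex it ran from 2541678 to 2562184, and replicate 2 had 4 regions over 29.5% of it. It began at the end of the widest region of that complex in replicate 1, and the region after it ran from 2562185 to 2564178 (log2 value 0.65). In replicate 2 it ran from 2668319 to 2684207, between regions with log2 values of 0.60 and 0.085, and replicate 1 had 1 region over 8.74% of it.

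In the bithorax complex the longest gap of replicate 1 ran from 12653974 to 12673565, between regions with log2 values of 0.42 and 0.29, and replicate 2 covered 7.57% of it. That of replicate 2 ran from 12521687 to 12542386, between regions with log2 values of 0.80 and 0.65, and replicate 1 covered 15.6% of it. The first of these gaps lies in the block with the lowest coverage of the complex.

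The longest stretch without a region in both replicates was 14954 bp in the Antennapedia complex, from 2788473 to 2803426, and 10666 bp in the bithorax complex, from 12662862 to 12673527. The Antennapedia complex had 3 such stretches of at least 10 kb, together 10.5% of its length, and the bithorax complex had 1, or 3.23%. Shared stretches were not counted on the rest of 3R, so these shares have no background. Within replicates 1 and 2, gaps of at least 10 kb numbered 6 and 3 in the Antennapedia complex, against 4 and 3 in the median window. In the bithorax complex they numbered 4 and 2, against 4 and 3. The combined list had regions over 12.9% of the stretch of 14954 bp and over 13.1% of that of 10666 bp. The sources used here do not say where reads could be placed, so a gap need not mean low H3.

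The combined list placed many more regions in the complexes. Its 89 regions of the Antennapedia complex were more than in any of the 75 windows, which held 53 to 83, and covered 57.6% of it, against 62.4% in the median window. The 77 regions of the bithorax complex equalled the highest of the 80 windows, which held 45 to 77, and covered 61.1%, against 61.5%. The median log2 value was 0.35 in the Antennapedia complex and 0.37 in the bithorax complex, against 0.39 in the median window for both. By covered share, 21 of 75 and 39 of 80 windows lay below the complexes, so the bithorax complex stood near the middle of 3R in this list.

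Bases covered by the combined list and by neither replicate made up 13.0% of the Antennapedia complex and 14.9% of the bithorax complex. This was more than in 68 of 75 and in 78 of 80 windows, whose medians were 9.48% and 9.72%. Of the combined regions, 40 of 89 and 40 of 77, or 44.9% and 51.9%, were covered over at least 50% by both replicates, beside a background of 60.8% on 3R. A further 11 of 89 and 7 of 77 were covered by replicate 1 alone, beside 6.84%, and 16 of 89 and 14 of 77 by replicate 2 alone, beside 12.4%. Those covered by neither were 22 of 89 and 16 of 77, or 24.7% and 20.8%, beside 20.0%. The sources used here do not say how the combined list was made, and it is named as that of the replicate set, so the 3 lists are not independent of each other.

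Regions that the authors labelled as depleted were absent from both complexes in the replicate lists, which held 1 such region on 3R in replicate 1 and 5 in replicate 2. The combined list had 3 in the Antennapedia complex and 1 in the bithorax complex, of 70 on 3R. Together the complexes make up 2.44% of the length of 3R. Their log2 values were close to 0, at -0.047 from 2533334 to 2534768, -0.012 from 2620620 to 2622134, -0.079 from 2671866 to 2673358 and -0.0061 from 12790052 to 12791586. Neither replicate had an enriched base in the first 3 of these. Of the 70 depleted regions of 3R, 6 had a base enriched in both replicates and 27 in 1 replicate only. Many others on 3R thus had none either.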

How the data were processed

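H3 ChIP-seq was analysed from the authors' region lists of 2 ChIP replicates and of their replicate set. Per the file headers the build is FlyBase r5. The submitters' processing notes name Bowtie 0.12.7. Which program called the regions, with which thresholds, and how ChIP was scaled to input were not given in the sources used here. Deposited values were taken as log2 of ChIP over input. Differences among the 40 highest values of each list were log2 of whole-number ratios (denominator at most 100, tolerance 1e-08) in 449 of 496, 343 of 406 and 55 of 55 pairs, for replicate 1, replicate 2 and the combined list. The pairs counted are fewer than 40 values can form. This check bears on the base of the logarithm and does not show that the ratio is ChIP over input. Depth is unknown, as the files give no counts, and so is the precision of single values.

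Covered shares, widths, values and gaps were computed in Python 3.11.15 (scipy 1.17.1, numpy 2.4.6, pandas 2.3.3) and checked on simulated lists. Regions that cross a boundary kept their whole width; covered shares and gaps were cut at the boundary. Windows on 3R were tiled from base 1. The regions named were, per complex, the widest, that of highest value and those beside the longest gap; others, such as those of lowest value, were chosen after their values were seen. With 2 replicates and no input lists, no p-value was computed. The members and measures were chosen with earlier results of these data known. RefSeq release 6 gave gene names and order only. Alternatives changed the value threshold, merged regions, left out a replicate, used the combined list or changed the windows. Sequences of the regions are not shown.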

Additional observations from a re-analysis of the deposited data

How the results depend on the processing

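No paired analysis was possible because the inputs, which share the replicate numbers of the ChIP libraries, come without region lists. Of 36 values recomputed under alternatives other than leaving out a replicate, 25 moved by more than the SD between replicates and 11 by less. Leaving out 1 of 2 replicates always moves a mean by less than that SD, so those values say nothing about stability. Dropping regions under the median value of their list can only lower covered shares, raise median values and lengthen the longest gaps. For these measures the direction was fixed in advance. Their moves count among the 25 and say nothing about stability either. Merging regions closer than 500 bp cannot change gaps as long as the longest ones, and can only raise covered shares. The unchanged longest gaps count among the 11 and say nothing about stability. For covered shares only the direction of the change was fixed. The Antennapedia complex is given before the bithorax complex. When regions under the median value of their list were dropped, covered shares were 14.7% and 17.4%, percentiles among windows of 3R 7.33 and 16.3, median widths 2155 bp and 2251 bp, median log2 values 0.63 and 0.62, and longest gaps 69231 bp and 40139 bp. In the combined list they were 57.6% and 61.1%, 28.0 and 48.8, 1863 bp and 2271 bp, 0.35 and 0.37, and 7953 bp and 9771 bp. Merging regions closer than 500 bp gave median widths of 1916 bp and 1989 bp and, in the Antennapedia complex, a median log2 value of 0.52. Against windows of 2L, 2R, 3L and X the percentiles were 42.5 and 47.4. Windows starting every 10 kb, and windows without the 2 Mb nearest the centromere, moved no percentile by more than the SD. Leaving out 1 replicate gave covered shares of 34.8 to 37.8% and 36.3 to 40.8%, and percentiles of 14.7 to 17.3 and 21.3 to 25. Depth is unknown and limits the detection of weak regions to an unknown extent, so differences in coverage between the lists cannot be told apart from depth.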

Other observations

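In the bithorax complex, 1 place was labelled enriched in both replicates and depleted in the combined list. Replicate 1 had a region there from 12790136 to 12791487 with a log2 value of 0.098, and replicate 2 one from 12790161 to 12791566 with 0.11. The combined list gave the stretch from 12790052 to 12791586 as depleted (-0.0061). Replicate 1 covered 88.1% and replicate 2 91.6% of that stretch. On 3R, 6 of the 70 depleted regions of the combined list were covered over at least 50% by both replicates, and 27 had an enriched base in 1 replicate only.

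The bithorax complex also held replicate regions with no base in an enriched region of the combined list, 2 of 58 in replicate 1 and 1 of 63 in replicate 2, beside 0.431% and 0.531% of the regions of 3R. Apart from the place above this was the region from 12531156 to 12532583 in replicate 1 (1428 bp, log2 value 0.57). It was not a weak one, since the median of the complex in that replicate was 0.53. The Antennapedia complex had 0 of 63 and 0 of 66 such regions.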
